A study of Mus musculus with 6 samples.

Results

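The collagen and laminin genes of the dorsal root ganglion (DRG) were compared between control mice and mice that lost the transcription factor Tlx3 from nociceptive neurons. Members were all protein-coding genes whose symbol has the form of a collagen chain (such as Col1a1) or of a laminin α, β or γ chain, which gave 55 of the 47937 rows of the deposited count table. At least 10 counts over the 6 libraries were found for 53 of them, 42 collagens and 11 laminins, among 20006 genes that passed the same minimum. The members just inside this limit were Col4a6 with 11 and Col17a1 with 14 counts in total, and those outside were Col6a6 with 5 and Col9a1 with 0.

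RNA was sequenced from ganglia of all levels (cervical, thoracic and lumbar) of C57BL/6 mice aged about 2 months, in 3 control libraries, which the labels give as wild type, and 3 libraries of Tlx3f/f;SNS-cre mice, called Tlx3cko here. The SNS-cre (Nav1.8-Cre) driver is active in most nociceptive neurons, so that the deletion is directed at neurons, whereas the RNA came from whole ganglia with their glia, vessels and connective tissue. The libraries held between 11458299 and 18775628 counts, of which between 0.08 and 0.093% fell on the collagen and laminin genes. Tlx3 itself had read counts of 1828, 2262 and 2433 in controls and 1717, 1052 and 1475 in Tlx3cko (72.7% of the control mean once normalized, edgeR adjusted p = 0.0122). Leaving out control replicate 2 (0.0606) or Tlx3cko replicates 2 (0.091) or 3 (0.0706) ended this call, as did the fit against control replicate 3 alone (0.175). All 9 sensory neuron markers listed were detected. Of 6 spinal cord markers, Opalin and Mnx1 were at 0 in every library, Mog, Slc6a5 and Chat had at most 4 counts in any library (Chat in Tlx3cko libraries alone), and Slc5a7 had 53, 37 and 81 against 102, 65 and 67 counts (edgeR adjusted p = 0.274). Sex was not balanced over the genotypes, since Xist reached 591 and 493 counts in control replicates 1 and 2 and at most 2 elsewhere, and Ddx3y had 0 counts in those replicates and 273 to 525 elsewhere. Values from control replicate 3 alone against the Tlx3cko libraries are therefore given for members past the threshold and some other named genes. They are not given for Calca, Scn10a or Myh4. In that comparison the spread comes from the 3 Tlx3cko libraries only and the lone control is assumed to vary like them, so its p-values hold no measure of the spread between controls.

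Collagens are extracellular proteins whose chains wind around each other into a helix. Fibril-forming collagens give tissue its tensile strength, and in ganglion and nerve they are laid down mainly by fibroblasts. Type IV collagen and laminin, a trimer of an α, a β and a γ chain, build the basement membranes that wrap Schwann cells, satellite glia and vessels, and cells bind them through integrins and dystroglycan. A few collagens are instead anchored in the plasma membrane, among them collagen XXV, which neurons make and which is known for its part in the growth of motor axons into muscle.

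Of the 53 genes tested, 6 passed the threshold, a Benjamini-Hochberg (BH) adjusted p under 0.05 over all genes by the quasi-likelihood test of edgeR. This is 11.3% of them beside 4.25% of all genes. Col25a1, Col24a1 and Col5a3 were higher in Tlx3cko DRGs (background 1.69% of all genes higher), and Col1a1, Col3a1 and Col6a2 were lower (background 2.56% lower). No laminin passed the threshold, with adjusted p between 0.0672 and 0.97 by edgeR. The groups did not overlap in 15 of the 53 genes, 28.3% beside 19.7% of all genes tested, with 7 lower (13.2% beside 10.8%) and 8 higher (15.1% beside 8.87%). Negative log2 fold changes were found in 33, 62.3% beside 50.7% of all genes. Over the 53 genes the median log2 fold change was -0.17, where the median of all genes tested was 0.00 and the interquartile range ran from -0.19 to 0.17. The median log2 fold change of the members was -0.0081 without control replicate 3 and turned to 0.026 against control replicate 3 alone. Summed over the family, levels per length (TPM, from the counts and the annotated exonic length) came to 329 ± 25.1 in control and 315 ± 11.9 in Tlx3cko DRGs (SD, n = 3 each), so the family's summed level differed by less than the spread between the control libraries. In RNA of whole ganglia, fewer cells of a type and less RNA per cell cannot be told apart.

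**Figure D1:**
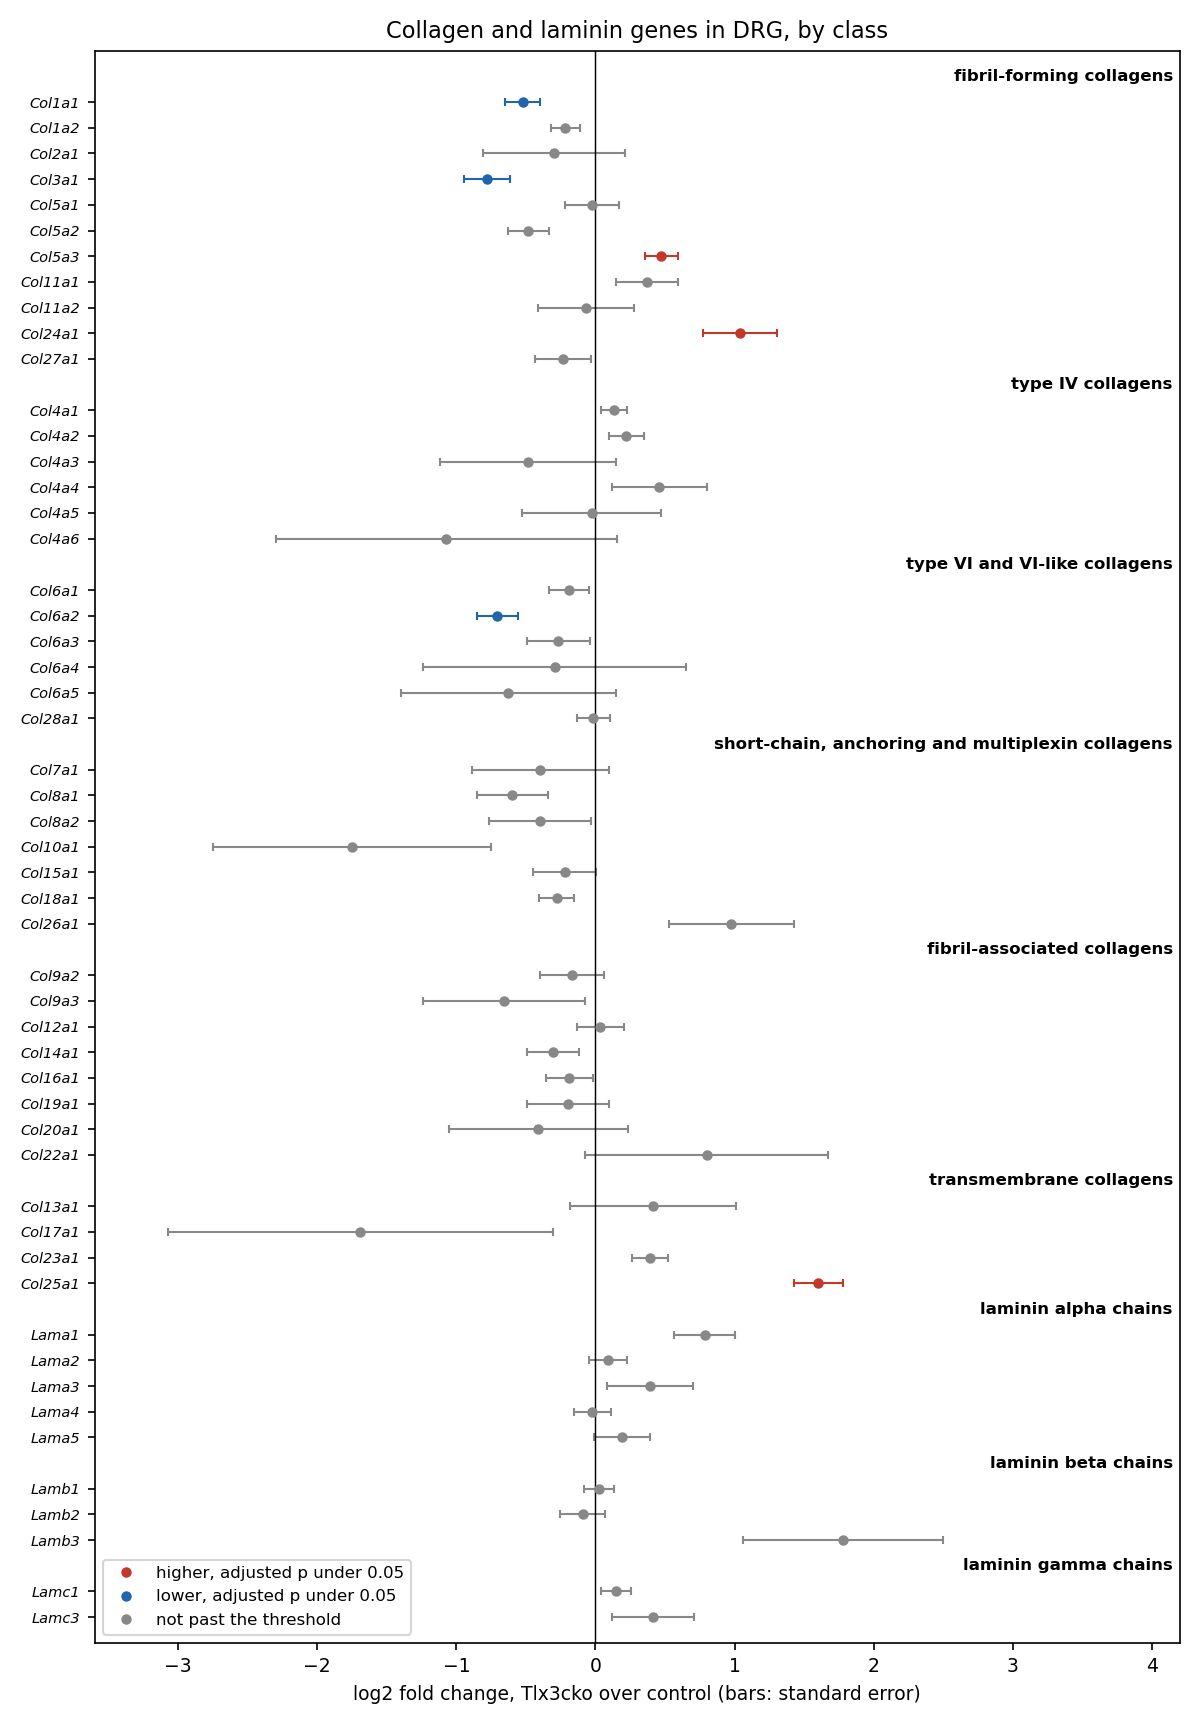
Log2 fold change (horizontal axis, Tlx3cko over control) of collagen and laminin genes tested, grouped by class, with bars for the standard error; red and blue mark genes higher or lower past the threshold. Col25a1 lies farthest to the right of the genes with a short bar, at 1.60, and all laminin chains plotted are grey.

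The promoters of the members that differed are shown first, since their transcripts moved in opposite directions. They were taken from RefSeq (GRCm38.p6), which matched 38 of the 53 genes tested by symbol, with Col1a1 not among them, and each is the stretch of 250 bases before the annotated start, free of exons of the GENCODE annotation. Capitals mark the letters of 3 motifs on either strand. The TATA box was searched as TATAAA. The letters of the CCAAT box are those of its name. The GC box was searched as GGGCGG, and the motifs were allowed to overlap. The windows lie at chr3:130180595-130180844 (plus strand) for Col25a1, chr3:145292222-145292471 (plus) for Col24a1, chr9:20815068-20815317 (minus) for Col5a3, chr1:45311288-45311537 (plus) for Col3a1 and chr10:76623631-76623880 (minus) for Col6a2, which has a further start not shown. The Col25a1 window lies inside the longest gene model, which begins upstream of it.
Col25a1: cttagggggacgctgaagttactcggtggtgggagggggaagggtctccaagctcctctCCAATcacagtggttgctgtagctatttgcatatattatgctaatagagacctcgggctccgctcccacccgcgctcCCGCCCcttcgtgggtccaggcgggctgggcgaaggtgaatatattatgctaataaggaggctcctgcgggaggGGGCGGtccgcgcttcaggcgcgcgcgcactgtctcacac
Col24a1: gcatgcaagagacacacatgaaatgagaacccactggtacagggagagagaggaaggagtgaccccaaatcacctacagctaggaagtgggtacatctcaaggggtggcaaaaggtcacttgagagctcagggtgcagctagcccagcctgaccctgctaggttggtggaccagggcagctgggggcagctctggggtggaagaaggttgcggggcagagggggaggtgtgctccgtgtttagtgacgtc
Col5a3: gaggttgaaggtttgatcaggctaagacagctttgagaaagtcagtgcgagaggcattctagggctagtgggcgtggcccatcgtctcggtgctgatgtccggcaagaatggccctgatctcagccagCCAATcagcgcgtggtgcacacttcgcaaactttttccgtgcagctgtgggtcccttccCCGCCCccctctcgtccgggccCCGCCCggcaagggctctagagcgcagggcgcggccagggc
Col3a1: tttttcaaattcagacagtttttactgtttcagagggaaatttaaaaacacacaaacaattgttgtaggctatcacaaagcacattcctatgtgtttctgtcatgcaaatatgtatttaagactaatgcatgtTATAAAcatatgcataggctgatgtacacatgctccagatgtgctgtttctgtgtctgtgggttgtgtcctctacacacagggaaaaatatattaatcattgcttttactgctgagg
Col6a2: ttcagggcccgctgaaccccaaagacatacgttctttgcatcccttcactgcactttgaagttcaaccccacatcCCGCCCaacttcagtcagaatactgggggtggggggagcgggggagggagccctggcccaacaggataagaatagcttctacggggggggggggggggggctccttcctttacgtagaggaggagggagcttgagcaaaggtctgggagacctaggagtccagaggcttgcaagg
The higher genes differed in these letters. The promoter of Col25a1 held 1 CCAAT box and 2 GC boxes, that of Col5a3 also 1 and 2, and that of Col24a1 none of the motifs. Among the lower genes Col3a1 had 1 match to the letters TATAAA, from 117 to 112 bases before the start. Col6a2 had 1 GC box at the start shown and 3 at its other start, whose window lies mostly in exons of the gene. All motifs here are matches of letters at any position in the window, and whether they act in these promoters was not tested. Over all 32851 promoters of this length, 12.4% held the TATA box, 33.8% the CCAAT box and 32.7% the GC box, while among the 41 promoters of the collagen and laminin genes the shares were 12.2%, 31.7% and 56.1%.

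Col25a1 showed the clearest difference. This transmembrane collagen gene (ENSMUSG00000058897) occupies chromosome 3, 130131501 to 130599877, plus strand. Read counts of 128, 92 and 117 in controls and 323, 247 and 348 in Tlx3cko were found. Every Tlx3cko library was far above every control library, and the Tlx3cko values lay close together. Normalized counts averaged 108 ± 26.3 in control and 326 ± 15.9 in Tlx3cko DRGs (SD, n = 3 each), 3.02 times the control mean, for a log2 fold change of 1.60 with a standard error (SE) of 0.18 (BH-adjusted p = 0.00013, edgeR). Leaving out single libraries gave 1.51 to 1.81, always past the threshold, and control replicate 3 alone gave 1.80 (BH-adjusted p = 0.00102, edgeR, with no spread among controls). Over all genes tested, 1.69% were higher past the threshold and 2.56% lower. Of 9 sensory neuron markers, 3 were higher past the threshold, Calca and Scn10a among them, and 0 were lower. The median log2 fold change of the 9 was 0.05, and 4 were negative. Prph, Pou4f1 and Avil (-0.12, -0.18 and -0.12) were lower without overlap between the groups, and 4 markers were higher without overlap. Over all genes tested, 10.8% were lower and 8.87% higher without overlap. Summed over the 9 markers, normalized counts ranged from 176628 to 191183 in control and from 197697 to 210480 in Tlx3cko libraries. No marker was at 0, and the part of these markers in the Col25a1 result was not tested.

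The other transmembrane collagens did not pass the threshold. Col23a1, the most abundant of them at 10.2 ± 1.65 TPM in control DRGs (SD, n = 3), had read counts of 310, 263 and 377 in controls and 415, 269 and 429 in Tlx3cko. Its normalized counts did not overlap between the groups, with a log2 fold change of 0.39 (SE 0.13, BH-adjusted p = 0.142, edgeR). Col13a1, a collagen of neuromuscular junctions, had between 4 and 18 counts per library. Col17a1, a hemidesmosome collagen, had read counts of 10, 1 and 0 in controls and 1 in each Tlx3cko library, so that no difference could be measured at this depth.

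**Figure D2:**
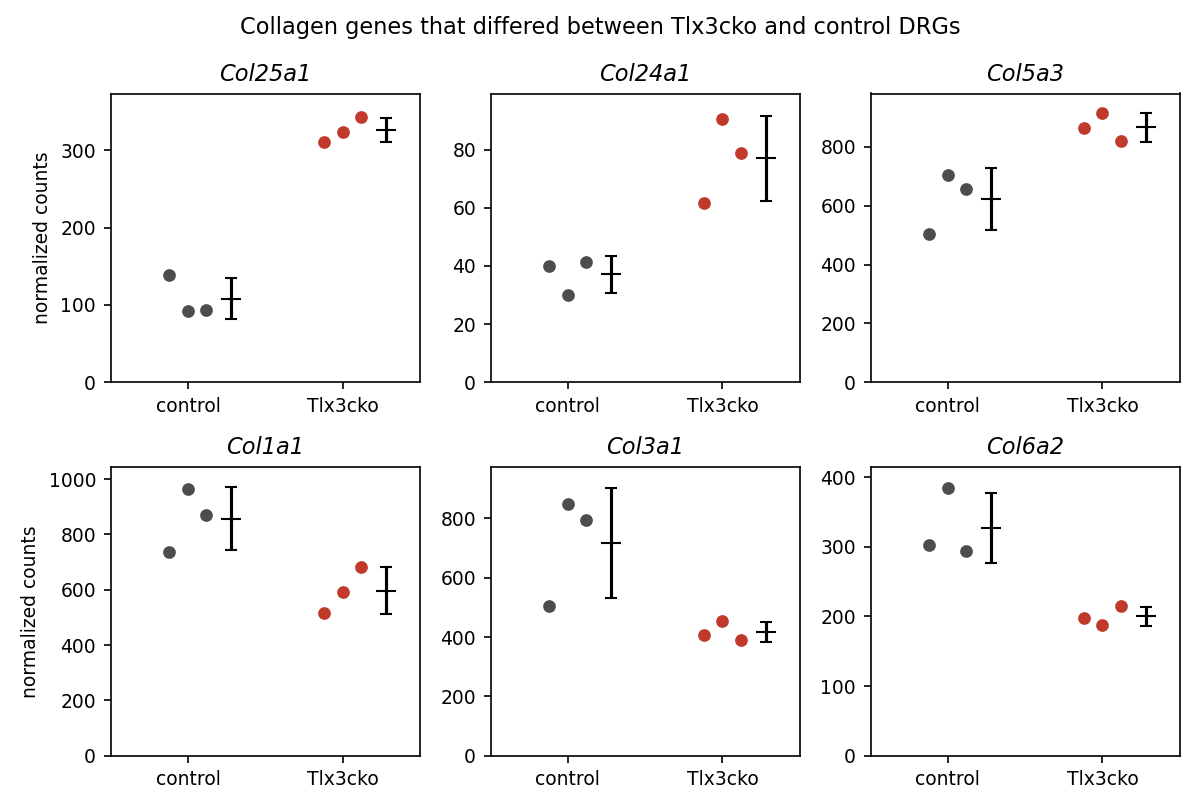
Normalized counts (vertical axis, from 0) of the 6 collagen genes past the threshold in each of the 3 control (grey) and 3 Tlx3cko (red) libraries, with the mean and SD beside the points. The groups are separate in every panel, most widely in Col25a1 (108 against 326 on average) and least in Col3a1 and Col1a1, where a control and a Tlx3cko library come close.

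In the fibril-forming class, 4 of 11 genes passed the threshold, 2 in each direction, beside 4.25% of all genes tested. Col1a1 (chromosome 11, 94936224 to 94953042), a chain of type I collagen, had read counts of 683, 966 and 1092 in controls and 535, 452 and 693 in Tlx3cko. In normalized counts the highest Tlx3cko library stayed below the lowest control library. The means were 857 ± 114 and 597 ± 83.6 normalized counts (SD, n = 3 each), 69.6% of control, with a log2 fold change of -0.52 (SE 0.13, BH-adjusted p = 0.0346, edgeR). Col3a1 (chromosome 1, 45311538 to 45349706), which forms the thin fibrils of type III collagen, had read counts of 467, 852 and 995 in controls and 423, 347 and 398 in Tlx3cko. Control replicate 1 was lower than the other controls, near the Tlx3cko values. On average it fell to 418 ± 33.2 normalized counts from 716 ± 186 in controls (SD, n = 3 each), and its log2 fold change was -0.78 (SE 0.17, BH-adjusted p = 0.0163, edgeR). A share of 1.44% of the exonic bases of Col3a1 is also annotated to Gm47302 on the same strand.

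These falls were not stable to the choice of libraries. For Col1a1 the adjusted p from the edgeR test was 0.155 without control replicate 2, 0.103 without control replicate 3, 0.108 without Tlx3cko replicate 1 and 0.139 without Tlx3cko replicate 2, and against control replicate 3 alone it was 0.128, with log2 fold changes from -0.63 to -0.42 over the fits that left out a library. For Col3a1 it was 0.0893 and 0.0764 without control replicates 2 and 3 and 0.0573 and 0.0761 without Tlx3cko replicates 1 and 3, with log2 fold changes from -0.98 to -0.64. Against control replicate 3 alone, Col3a1 had a log2 fold change of -0.93 (BH-adjusted p = 0.00614, edgeR, with no spread among controls).

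Col1a2 encodes the partner chain of Col1a1 in type I collagen and had the most counts of all members (1171, 1664 and 2023 in controls and 1289, 1002 and 1369 in Tlx3cko). The groups overlapped, and its log2 fold change of -0.22 (SE 0.10) did not pass the threshold (BH-adjusted p = 0.366, edgeR). Per length, the ratio of Col1a1 to Col1a2 transcripts within a library was 1.10, 1.10 and 1.02 in the controls and 0.786, 0.854 and 0.958 in the Tlx3cko libraries. The corresponding ratio of Col3a1 to Col1a2 was 0.505, 0.648 and 0.623 against 0.415, 0.438 and 0.368. In both ratios each Tlx3cko library was below each control library. The pairs of chains were chosen after the values were seen, and no test of them is given. Of 10 pairs computed, 5 did not overlap between the groups, and the other 5 did, namely Col4a1 to Col4a2, Col5a2 to Col5a1, Col6a3 to Col6a1, Lamb2 to Lamb1 and Lama2 to Lama4. In the 5 without overlap the first gene (Col1a1, Col3a1, Col5a3, Col6a2 or Lama1) was itself without overlap in normalized counts. These ratios are therefore not independent of the values of the single genes. Col5a2 was also without overlap, though its ratio overlapped. The share without overlap among other pairs of genes was not computed.

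Type V collagen sets the diameter of fibrils, and 1 of its 3 genes passed the threshold, beside 4.25% of all genes tested. Col5a3 (chromosome 9, 20770050 to 20815067) had read counts of 468, 708 and 822 in controls and 899, 697 and 832 in Tlx3cko. After normalization the groups were separate, at 622 ± 105 and 866 ± 47.9 counts (SD, n = 3 each), 1.39 times the control mean, with a log2 fold change of 0.47 (SE 0.12, BH-adjusted p = 0.0458, edgeR). Col5a1, with overlapping groups, had a log2 fold change of -0.02 (SE 0.20), and 2.5% of its exonic bases lie under genes on the other strand. Col5a2 had read counts of 238, 245 and 386 in controls and 194, 159 and 189 in Tlx3cko, without overlap after normalization, and a log2 fold change of -0.48 (SE 0.15, BH-adjusted p = 0.0956, edgeR). Col5a2 lies 24614 bases from Col3a1 on chromosome 1, tail to tail with it. The ratio of Col5a3 to Col5a1 per length was 3.94 ± 0.216 in control and 5.77 ± 1.15 in Tlx3cko DRGs (SD, n = 3 each), again without overlap. The call of Col5a3 held in 1 of the 6 fits that left out a library, the fit without control replicate 2. Without control replicate 1 the adjusted p was 0.0983 and without control replicate 3 it was 0.0855. Leaving out Tlx3cko replicates 1, 2 or 3 gave 0.0929, 0.177 and 0.0933, and control replicate 3 alone gave 0.183 (edgeR throughout).

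Col24a1 (chromosome 3, 145292472 to 145552011), a minor fibril-forming collagen known from developing bone and eye, had read counts of 37, 30 and 52 in controls and 64, 69 and 80 in Tlx3cko. The Tlx3cko values were all above the controls, at low counts. Normalized counts were 37.1 ± 6.28 and 77.0 ± 14.6 (SD, n = 3 each), 2.07 times the control mean, with a log2 fold change of 1.04 (SE 0.26, BH-adjusted p = 0.0446, edgeR). This call was lost with limma-voom (adjusted p = 0.0597), and with the replicate number as a block (adjusted p = 0.0772 from edgeR). It was also lost without control replicates 1, 2 or 3 (0.0736, 0.162 and 0.0857), without Tlx3cko replicates 2 or 3 (0.18 and 0.139) and against control replicate 3 alone (0.372), all from the edgeR test. The remaining genes of the class, Col2a1, Col11a1, Col11a2 and Col27a1, had log2 fold changes between -0.30 and 0.37, and none of them passed.

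**Figure D3:**
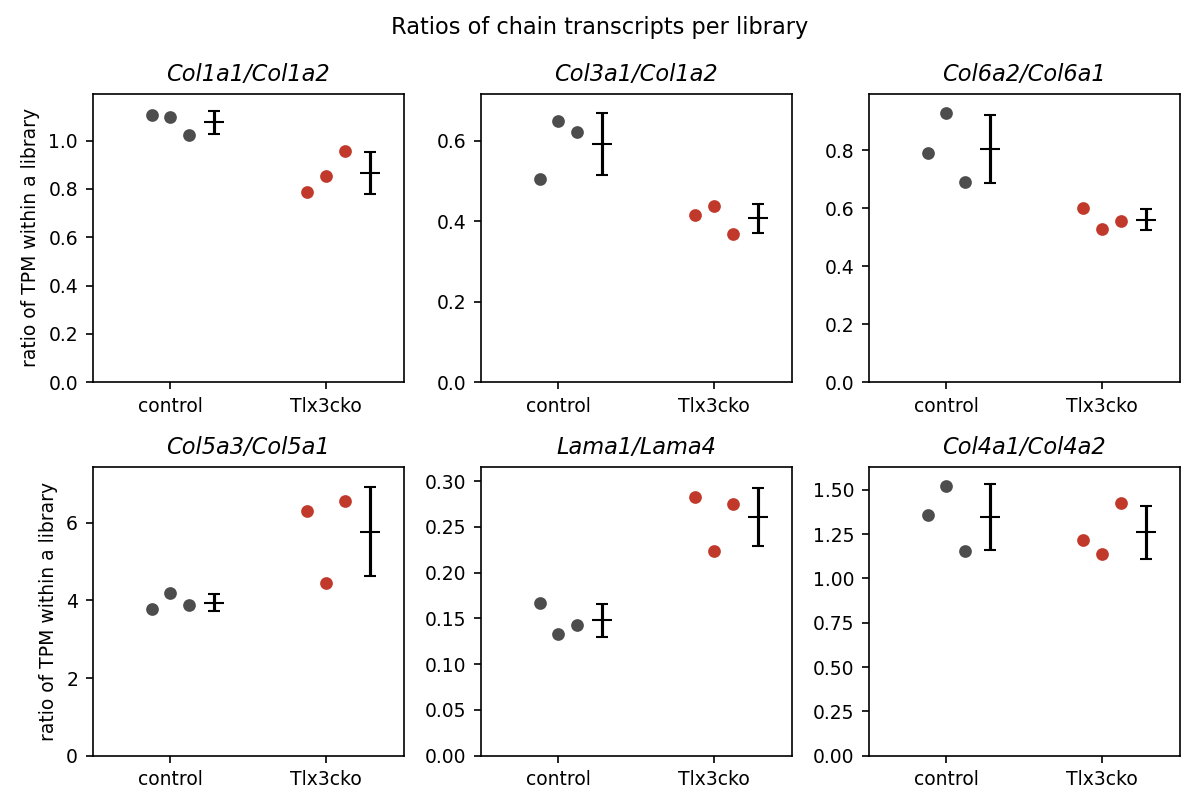
Ratio of the TPM of 2 chains within each library (vertical axis, from 0) for 3 control (grey) and 3 Tlx3cko (red) libraries, with the mean and SD beside the points, for the 5 pairs without overlap and 1 of the 5 with it. The ratios of Col1a1 and Col3a1 to Col1a2 and of Col6a2 to Col6a1 are lower in every Tlx3cko library, those of Col5a3 to Col5a1 and Lama1 to Lama4 are higher, and that of Col4a1 to Col4a2 overlaps (1.34 against 1.26 on average).

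Type VI collagen forms beaded filaments around cells from chains encoded by Col6a1, Col6a2 and Col6a3. Col6a2 (chromosome 10, 76595762 to 76623630) had read counts of 281, 386 and 368 in controls and 206, 143 and 218 in Tlx3cko. Each Tlx3cko library was below each control library. On average it fell to 200.1 ± 13.5 normalized counts from 327 ± 50.2 in controls (SD, n = 3 each), 61.2% of control, with a log2 fold change of -0.71 (SE 0.15, BH-adjusted p = 0.0139, edgeR). Col6a1, which lies 85161 bases from Col6a2 in the same direction, kept 87.7% of its control mean, and Col6a3 on chromosome 1 kept 83.7%. Their log2 fold changes were -0.19 (SE 0.14) and -0.27 (SE 0.23), and neither passed. The ratio of Col6a2 to Col6a1 per length was 0.7905, 0.927 and 0.691 in the controls and 0.599, 0.526 and 0.557 in the Tlx3cko libraries. Without control replicate 2 the adjusted p of Col6a2 was 0.0657, without Tlx3cko replicate 2 it was 0.0795, and against control replicate 3 alone it was 0.206, at a log2 fold change of -0.55 (edgeR throughout).

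Of 8 fibroblast markers, 2 were lower past the threshold and 0 were higher, beside 2.56% lower and 1.69% higher over all genes tested. Their median log2 fold change was -0.42. The other 6 overlapped between the groups, and Mfap5 had a log2 fold change of 0.06. Pdgfra, the growth factor receptor that marks fibroblasts, had read counts of 168, 132 and 224 in controls and 105, 76 and 86 in Tlx3cko (log2 fold change -0.79, BH-adjusted p = 0.0354, edgeR). Dcn, which encodes decorin, a proteoglycan on collagen fibrils, had a log2 fold change of -0.39 (BH-adjusted p = 0.0395, edgeR). The call of Pdgfra held in 1 of the 6 fits without a library, that without control replicate 2, and was lost in the others (0.0981 and 0.129 without control replicates 1 and 3, and 0.062, 0.103 and 0.154 without Tlx3cko replicates 1, 2 and 3) and with the replicate number as a block (0.0561). That of Dcn was lost without control replicates 1 or 2 (0.112 and 0.106) and Tlx3cko replicates 2 or 3 (0.201 and 0.103). Control replicate 3 alone gave 0.0966 and 0.452 for these genes (edgeR adjusted p throughout). Summed over the 8 markers, normalized counts ranged from 5062 to 5604 in control and from 3666 to 4622 in Tlx3cko libraries, and no marker was at 0. Apod and Dcn held most of these counts. The part of these markers in the collagen results was not tested.

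Col28a1, a relative of the type VI chains known from the sheath of peripheral nerve, was the most abundant member per length. It had 32.1 ± 5.26 TPM in control and 31.3 ± 4.41 TPM in Tlx3cko DRGs (SD, n = 3 each), with overlapping groups and a log2 fold change of -0.02 (SE 0.12). Col6a4 and Col6a5 had at most 12 counts in any library.

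**Figure D4:**
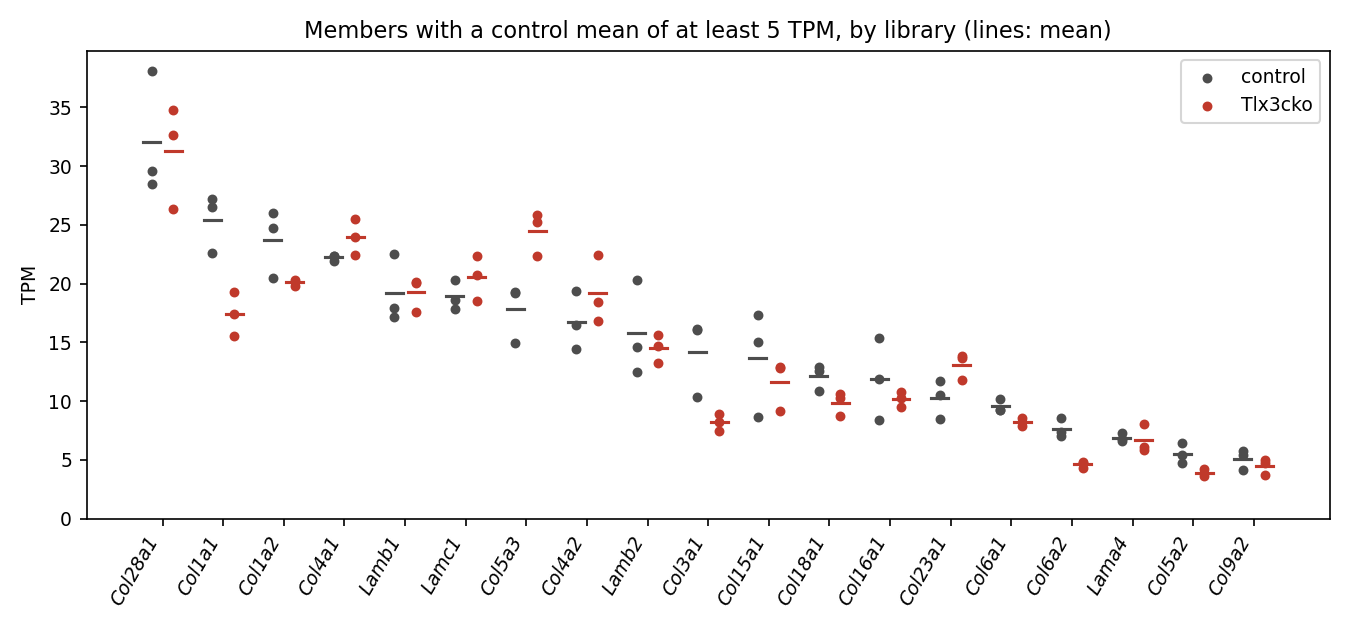
TPM (vertical axis, from 0) of the collagen and laminin genes with a control mean of at least 5 TPM, in order of that mean, with a point for each of the 3 control (grey) and 3 Tlx3cko (red) libraries and a line at the mean. Col28a1, Col1a1, Col1a2 and Col4a1 stand first in control, and Col5a3 is level with Col4a1 in Tlx3cko DRGs (24.5 and 24.0 TPM).

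In order of their level per length, Col28a1 stood at 32.1, Col1a1 at 25.4, Col1a2 at 23.7, Col4a1 at 22.2, Lamb1 at 19.2, Lamc1 at 18.9 and Col5a3 at 17.8 TPM in control DRGs. The control libraries of neighbours in this order overlapped, except that each library of Col28a1 was above each of Col1a1. A mean of at least 10 TPM was reached by 14 genes, which together made up 77.1% of the summed control level, and 3 of these 14 passed the threshold (Col1a1, Col3a1 and Col5a3). Another 18 genes had a control mean under 1 TPM, of which 1, Col24a1, passed. Of all genes tested, 4.25% passed. Standard errors of the log2 fold change ranged from 0.0937 to 0.225 in the abundant genes and from 0.265 to 1.38 in those under 1 TPM.

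No gene of the type IV collagens, the network of the basement membrane, passed the threshold. Col4a1 had read counts of 769, 887 and 1046 in controls and 877, 755 and 977 in Tlx3cko, and Col4a2 had 503, 516 and 804 against 639, 589 and 609. The libraries of both groups overlapped in each gene. The log2 fold changes were 0.13 (SE 0.09) and 0.22 (SE 0.13). The annotation places these partner chains head to head on chromosome 8, with starts that overlap by 22 bases, and the ratio of Col4a1 to Col4a2 per length was 1.34 ± 0.186 in control and 1.26 ± 0.147 in Tlx3cko DRGs (SD, n = 3 each). Col4a3, Col4a4, Col4a5 and Col4a6 were scarce, with at most 37 counts in any library, and 5.65% of the exonic bases of Col4a3 lie under a gene on the other strand. Of these scarce genes, Col4a4 alone was without overlap between the groups once normalized, higher in Tlx3cko. Its log2 fold change was 0.46 (SE 0.34, BH-adjusted p = 0.628, edgeR).

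The laminins showed no change past the threshold either. Lama4, the α chain of vessel and nerve basement membranes, had read counts of 365, 441 and 549 in controls and 371, 384 and 403 in Tlx3cko, with a log2 fold change of -0.02 (SE 0.14). Lama2, the main α chain around Schwann cells, had 261, 221 and 324 against 272, 204 and 286 counts and a log2 fold change of 0.09 (SE 0.14). Lamb1 and Lamc1, which join these α chains, had 783, 961 and 1402 against 1044, 789 and 954 counts and 681, 832 and 1052 against 803, 681 and 1013 counts, with log2 fold changes of 0.03 and 0.15 (SE 0.11 each). Lamb2 had a log2 fold change of -0.09 (SE 0.16). Of these chains Lama4, Lamb1 and Lamb2 changed sign when single libraries were left out, and Lamb1 and Lamb2 also against control replicate 3 alone. Of the 11 laminins, 8 had a positive and 3 a negative log2 fold change, with a median of 0.15. Over all genes tested, 50.7% were negative.

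Lama1 and Lamb3, singled out after their values were seen, were the laminins whose groups did not overlap. Lama1, the α chain of embryonic basement membranes, had read counts of 49, 47 and 63 in controls and 84, 69 and 89 in Tlx3cko, and the lowest Tlx3cko library was above the highest control library once normalized. Its log2 fold change of 0.79 (SE 0.22) did not pass (BH-adjusted p = 0.0672, edgeR). When single libraries were left out it ranged from 0.74 to 0.83, with adjusted p from 0.0953 to 0.198, and against control replicate 3 alone the adjusted p was 0.357 (edgeR). The ratio of Lama1 to Lama4 per length was 0.148 ± 0.0177 in control and 0.261 ± 0.0318 in Tlx3cko DRGs. Lamb3, an epithelial β chain, had read counts of 2, 2 and 6 in controls and 11, 6 and 14 in Tlx3cko (log2 fold change 1.78, SE 0.72, BH-adjusted p = 0.252, edgeR). Lama3, Lama5 and Lamc3 had log2 fold changes of 0.39, 0.19 and 0.42, and 6.27% of the exonic bases of Lamc3 are under a gene on the other strand.

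The remaining collagens, which attach to fibrils or form short chains, anchoring fibrils and vessel-associated proteins, held no gene past the threshold. Among 8 fibril-associated collagens tested, 6 had negative log2 fold changes (50.7% of all genes did), with a range from -0.66 to 0.80. Col16a1, the most abundant of them, had read counts of 370, 307 and 650 in controls and 364, 255 and 398 in Tlx3cko (log2 fold change -0.19, SE 0.17). Control replicate 3 was the highest of its libraries, and the groups overlapped. Col15a1, a basement membrane collagen, had 252, 517 and 691 against 305, 324 and 444 counts, with a log2 fold change of -0.22 (SE 0.23). Col18a1, the source of endostatin, had 351, 478 and 567 against 390, 285 and 336 counts. Once normalized its groups did not overlap, narrowly (lowest control library 379, highest Tlx3cko library 375). Its log2 fold change of -0.28 (SE 0.12) did not pass (BH-adjusted p = 0.319, edgeR). Col8a1, Col10a1 and Col26a1 were also without overlap between the groups but did not pass, with adjusted p of 0.289, 0.484 and 0.343 from the edgeR test. Col10a1, the collagen of hypertrophic cartilage, had at most 11 counts in any library.

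The genes that act on collagen and laminin were examined through lists of synthesis enzymes, basement membrane partners, receptors and proteases. Of 28 genes for collagen synthesis and cross-linking, 1 was higher and 0 were lower, beside 1.69% and 2.56% of all genes tested. Their median log2 fold change was -0.08. The higher gene was Mia3, which encodes the TANGO1 protein that loads procollagen into carriers at the endoplasmic reticulum, at 1202 ± 93.8 and 1550 ± 76.5 normalized counts (SD, n = 3 each) in control and Tlx3cko DRGs (log2 fold change 0.37, SE 0.09, BH-adjusted p = 0.0309, edgeR). Its call was lost with the replicate number as a block (adjusted p = 0.0595), against control replicate 3 alone (0.0838), and without control replicate 2 or 3 or Tlx3cko replicate 2 or 3 (0.114, 0.115, 0.138 and 0.0966), all from the edgeR test.

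Of 10 basement membrane partners, 1 was higher and 0 were lower, beside 1.69% and 2.56% of all genes tested. Their log2 fold changes were positive in 9, with a median of 0.17, where 50.7% of all genes had negative ones. Agrn, which encodes agrin, a proteoglycan that binds laminin and dystroglycan, had read counts of 646, 573 and 770 in controls and 895, 693 and 905 in Tlx3cko. The Tlx3cko libraries were all above the controls once normalized. The log2 fold change was 0.50 (SE 0.10, BH-adjusted p = 0.0114, edgeR), and the adjusted p was 0.0542 without control replicate 2, 0.0534 and 0.056 without Tlx3cko replicates 2 and 3, and 0.0555 against control replicate 3 alone. The list of 19 collagen and laminin receptors held integrins, dystroglycan, sarcoglycans, discoidin receptors, Bcam, Lair1 and Mrc2. Of these 19 genes, 0 passed the threshold in either direction, with a median log2 fold change of -0.08. The lowest adjusted p, 0.131 from the edgeR test, was that of Mrc2 (log2 fold change -0.68). Of 15 proteases and inhibitors tested, 1 was lower and 0 were higher, beside 2.56% and 1.69% of all genes. This gene was Mmp17, a membrane-anchored matrix metalloproteinase, with read counts of 318, 466 and 505 in controls and 214, 202 and 254 in Tlx3cko (log2 fold change -0.75, SE 0.15, BH-adjusted p = 0.0101, edgeR). Without control replicate 2 its adjusted p was 0.0537, and against control replicate 3 alone it was 0.0696.

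**Figure D5:**
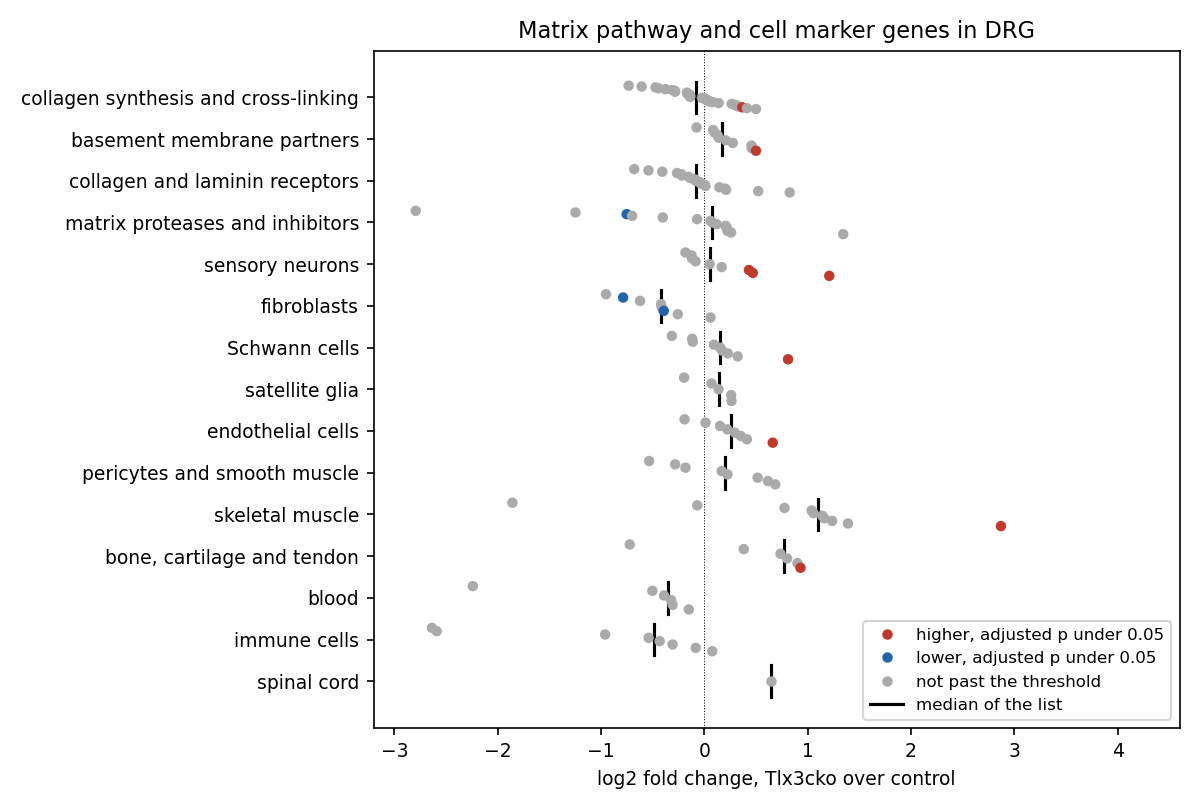
Log2 fold change (horizontal axis, Tlx3cko over control) of each gene tested in 4 matrix lists and 11 cell marker lists, with a black line at the median of each list and red or blue points for genes past the threshold. The fibroblast median lies at -0.42, and the medians of the skeletal muscle and of the bone, cartilage and tendon markers lie at 1.10 and 0.77.

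Markers of other tissues were counted in the same way. Over all genes tested, 1.69% were higher past the threshold, 2.56% were lower, and 50.7% had a negative log2 fold change. Of 10 skeletal muscle markers, 1 was higher and 0 were lower, with a median log2 fold change of 1.10. The higher gene was Myh4, a fast muscle myosin (log2 fold change 2.87, BH-adjusted p = 0.0101, edgeR). Their summed normalized counts ranged from 136 to 2298 in control and from 1789 to 3189 in Tlx3cko libraries, and Myoz1 was at 0 in control replicate 3. The groups overlapped in 9 of the 10, and Myh1 and Myh2 had log2 fold changes of -0.07 and -1.86. For bone, cartilage and tendon, 1 of 6 markers tested was higher and 0 were lower, with sums over the whole list from 411 to 607 in control and from 701 to 736 in Tlx3cko libraries, and Bglap, which encodes osteocalcin, was at 0. The gene past the threshold was Comp, a cartilage and tendon protein that binds fibril-forming collagens (log2 fold change 0.93, SE 0.16, BH-adjusted p = 0.00508, edgeR), with an adjusted p of 0.113 against control replicate 3 alone. The part of these tissues in the levels of Col25a1 and Col24a1 was not tested. Endothelial, Schwann cell and satellite glia markers had medians of 0.26, 0.15 and 0.14, with 1, 1 and 0 genes higher and none lower, and pericyte, blood and immune cell markers held no gene past the threshold in either direction by the edgeR test. The medians of these lists were 0.20, -0.36 and -0.49, with negative log2 fold changes in 3 of 8, 6 of 6 and 7 of 8 genes. The part of the blood and immune cell markers in the lower collagen genes was not tested.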

How the data were processed

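Per the labels and the study's methods, RNA of whole DRGs was sequenced, and the authors deposited raw counts per gene without normalization. The submitters' processing notes name STAR 2.5.2a and mm10, while the counting program and its use of strand are not given in the sources used here. Names, positions and exonic lengths came from GENCODE M21 (GRCm38). With R 4.3.3, genes reaching 10 counts in total were scaled by TMM and fitted in edgeR 4.0.16 (glmQLFit, glmQLFTest), with BH adjustment. The SE of a log2 fold change was its absolute value divided by the square root of the F statistic of that test. This statistic draws on the variability of all genes, so the SE does not come from the 3 libraries per group alone. Scripts were tested on simulated data. Alternatives used DESeq2 1.42.0, limma 3.58.1, other scalings, filters and library choices. Members past the threshold, the most abundant of each class and their partner chains are named, with genes past the threshold from each list. Members and lists were chosen with earlier results of these data known. The p-values rest on the spread between these 3 libraries per group together with the variability of all genes. An exact permutation test of 3 against 3 cannot go below 0.1. Libraries held 11458299 to 18775628 counts, and 0.199 to 0.269% fell on loci outside the annotation. Some genes are counted in the totals but are not reported here by name.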

Additional observations from a re-analysis of the deposited data

How the results depend on the processing

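The number of genes past the threshold, 6, became 2 when at least a 2-fold change was required, 2 against control replicate 3 alone, and 2 to 4 with single libraries left out. Of these the lower genes, 3, became 0 with the 2-fold change, 1 against control replicate 3 alone and 0 to 3 with libraries left out, and the higher genes, also 3, became 1 against control replicate 3 alone and 1 to 2 with libraries left out. The median log2 fold change of the members, -0.17, was -0.043 with edgeR's filterByExpr, which drops members of low counts, 0.026 against control replicate 3 alone, and -0.15 to -0.0081 with libraries left out. Over all genes the 851 calls became 1529 with no count minimum, 315 with the 2-fold change, 546 against control replicate 3 alone and 488 to 938 with libraries left out. Against control replicate 3 alone the log2 fold changes of Lamb1 and Lamb2 were -0.17 and 0.27. With libraries left out, the range was -0.26 to 0.11 for Col5a1, -0.42 to 0.022 for Col6a3, -0.089 to 0.11 for Col28a1, -0.36 to 0.028 for Col16a1, -0.16 to 0.083 for Lama4, -0.069 to 0.14 for Lamb1 and -0.25 to 0.10 for Lamb2, none past the threshold. The cause of these shifts was not tested.

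Samples of the same number did not deviate together (correlations -0.0674, -0.0136 and -0.0578). Deviations were taken within groups of 3 libraries over all genes, so small correlations cannot exclude that the numbers pair the samples. With the replicate number as a block, 5 members passed, and Col24a1 did not. Counts limit the scarce members most. Since 2 of the 3 controls differ from all Tlx3cko libraries in Xist and Ddx3y, sex and genotype cannot be told apart in the full comparison.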
